A study of Mus musculus with 7 samples.

Results

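The histone deacetylase genes Hdac1, Hdac2, Hdac3, Hdac4, Hdac5, Hdac6, Hdac8, Hdac9, Hdac10 and Hdac11 were followed as possible targets of Tip60, Hdac6 and p400 in mouse embryonic stem cells (ESCs). All rows of the ChIP-seq tables that carry one of these 10 gene symbols were taken, which gave 16 of 36733 rows, each row being the coverage around 1 transcriptional start site (TSS). Hdac4, Hdac6 and Hdac9 have 3, 4 and 2 rows and every other gene has 1, and since some of these windows overlap, the 16 rows cover 13 separate promoter regions. TSSs of a gene are numbered from the most upstream one. Of all rows 22704 have a RefSeq identifier, as the 16 rows do, and only these have p400 data. Shares and percentiles of all rows therefore rest on RefSeq rows alone for p400 and on a wider set for the other libraries.

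All 7 libraries came from E14 ESCs, 1 library per condition and no replicates. Tip60-H3F and Hdac6-H3F ESCs carry a 6-His-3-FLAG tag at the end of the endogenous gene, and the tagged protein was precipitated with a Flag antibody 72 hr after lentiviral infection with a hairpin against GFP (the control, GFP KD), Hdac6 (Hdac6 KD, in Tip60-H3F cells) or Tip60 (Tip60 KD, in Hdac6-H3F cells). The label of this last library is at odds with itself, since its title names Tip60 KD while its genotype field names Hdac6 KD; it is called the library titled Tip60 KD. Wild-type ESCs without a tag gave the Flag background. The title of this library names no hairpin, and no time after infection is given for it. Tag and infection therefore cannot be told apart where a tagged library is set against it. Endogenous p400 was precipitated with its own antibody upon GFP KD and Hdac6 KD in cells without a tag. Each knockdown used 1 hairpin per gene. ChIP reads give no transcript levels, so neither the knockdowns nor ESC markers can be checked in these files. The question behind the libraries was where Tip60, p400 and Hdac6 sit on promoters and whether Tip60 and p400 need Hdac6 there.

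Histone deacetylases remove acetyl groups from lysines and so oppose acetyltransferases such as Tip60, which works in one complex with the ATPase p400. Class I enzymes (Hdac1, Hdac2, Hdac3, Hdac8) are largely nuclear, and Hdac1 and Hdac2 act within the Sin3, NuRD and CoREST corepressors, whereas Hdac3 acts with NCoR and SMRT. Class IIa enzymes (Hdac4, Hdac5, Hdac9) shuttle between cytoplasm and nucleus and bind transcription factors. Class IIb holds Hdac6, best known as a tubulin deacetylase of the cytoplasm, and Hdac10, known as a polyamine deacetylase. Hdac11 is the only member of class IV. In this series Hdac6 is thus a tagged protein, a knockdown target and, here, also a set of promoters.

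The bases before 4 of these TSSs are shown. Hdac1 had the most Tip60 reads upon GFP KD, Hdac8 shared the lowest count with Hdac6 TSS 4, Hdac6 encodes the factor that was tagged and knocked down, and Hdac2 was chosen after its values were seen because its p400 signal changed most. Each line gives the 250 bases that end 1 base before the TSS, from 5′ to 3′ on the strand of the gene, in build mm9, with CpG dinucleotides in capitals.

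Hdac1, chr4:129219891-129220140, minus strand: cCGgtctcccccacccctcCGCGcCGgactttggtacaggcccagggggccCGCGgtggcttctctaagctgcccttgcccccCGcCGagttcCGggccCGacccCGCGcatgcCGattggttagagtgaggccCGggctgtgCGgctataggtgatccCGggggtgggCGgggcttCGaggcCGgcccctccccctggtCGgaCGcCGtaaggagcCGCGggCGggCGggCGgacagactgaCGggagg
Hdac2, chr10:36694100-36694349, plus strand: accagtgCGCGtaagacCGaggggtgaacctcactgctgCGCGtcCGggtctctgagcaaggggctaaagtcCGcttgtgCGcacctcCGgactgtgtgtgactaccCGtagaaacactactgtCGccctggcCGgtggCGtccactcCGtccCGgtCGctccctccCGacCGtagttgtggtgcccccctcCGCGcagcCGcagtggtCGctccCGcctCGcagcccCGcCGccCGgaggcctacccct
Hdac8, chrX:99700488-99700737, minus strand: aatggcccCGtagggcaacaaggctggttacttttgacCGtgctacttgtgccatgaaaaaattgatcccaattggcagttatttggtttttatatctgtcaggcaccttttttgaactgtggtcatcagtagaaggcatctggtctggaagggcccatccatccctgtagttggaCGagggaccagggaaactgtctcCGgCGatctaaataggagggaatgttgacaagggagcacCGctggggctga
Hdac6 TSS 1, chrX:7524954-7525203, minus strand: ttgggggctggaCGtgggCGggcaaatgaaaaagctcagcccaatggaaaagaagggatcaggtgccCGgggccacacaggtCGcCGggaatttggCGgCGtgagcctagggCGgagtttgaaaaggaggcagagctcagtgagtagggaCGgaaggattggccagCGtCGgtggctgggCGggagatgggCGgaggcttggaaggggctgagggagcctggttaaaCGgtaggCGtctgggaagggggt

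The Hdac1 and Hdac2 stretches held 28 and 27 CpGs and the stretch of Hdac6 TSS 1 held 15, while that of Hdac8 held 6. The lowest count of the family was 0, before Hdac4 TSS 3, whose bases are not shown. The letters GGGCGG, the core of an Sp1 box, were found on either strand of these 250 bases in 10 of the 16 rows, against 35.2% of all rows, and were absent before Hdac8, before both TSSs of Hdac9, before TSS 2 and TSS 3 of Hdac4 and before Hdac6 TSS 4. The letters CCAAT were found in 9 of 16 rows and in 33.2% of all rows. The letters TATAAA were found before Hdac8 alone of the 16 (11.9% of all rows) and CACGTG before none (6.12% of all rows). Matches of different motifs can share bases, and a match is a run of letters and not a bound site.

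The base composition of the windows used for all counts, 500 bp to either side of the TSS, differed widely within the family. It was highest at Hdac4 TSS 1, with 71.8% GC and more CpGs than 98.6% of all rows, and at Hdac2, with 70.8% GC and 104 CpGs. Hdac5 had 65.5% GC and 92 CpGs, and Hdac1 61.7% and 68. Hdac6 TSS 1 and TSS 2 lay at 60.8% and 60.9%, Hdac11 at 59.8%, Hdac3 at 58.8%, Hdac6 TSS 3 at 56.9% and Hdac10 at 56.2%. At the low end were Hdac6 TSS 4 (51.6%), Hdac8 (49.6%), Hdac4 TSS 2 (47.3%), both Hdac9 TSSs (45.1% and 45.6%) and Hdac4 TSS 3 (44.4%, 3 CpGs). The medians of all rows were 53.0% GC and 25 CpGs. As is shown later, the libraries differ in how they recover GC-rich DNA, so these values stand beside every comparison.

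The annotation used for positions is GENCODE on mm9. Hdac2 (chromosome 10, TSS 36694350) and Hdac4 TSS 3 (chromosome 1, 93903432) fell on the first base of an annotated transcript. Hdac11 (chromosome 6, 91106809), Hdac5 (chromosome 11, 102091486) and Hdac8 (chromosome X, 99700487) lay 3, 6 and 2 bp upstream of one, and Hdac1 (chromosome 4, 129219890), Hdac10 (chromosome 15, 88959057) and Hdac9 TSS 1 (chromosome 12, 35213739) 45, 24 and 15 bp downstream of one, in an exon. Hdac9 TSS 2 (35213210) lay 529 bp further into the gene. Hdac6 TSS 1 (chromosome X, 7524953), TSS 2 (7524863) and TSS 3 (7524370) lie within 583 bp, so their windows share reads, and TSS 4 (7516667) lies in an exon 8286 bp downstream of TSS 1. Hdac4 TSS 2 (94045071) lay just upstream of an annotated start, which is inside its window, and Hdac4 TSS 1 (94076918), 31847 bp further upstream, had no annotated Hdac4 start within 31948 bp although its window is the most CpG-rich of the family.

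Hdac3 (chromosome 18, TSS 38114642) fell on the first base of its annotated transcript. A start of Rell2 lies 571 bp upstream of it on the opposite strand, just outside the window, and reads from the shared region cannot be assigned to one gene.

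The deposited coverage is in whole reads, so reads per window could be counted. The libraries were normalized to between 9226744 and 31375532 reads, and the median row had 8 to 21 reads within 500 bp of the TSS. At this depth a single promoter has wide counting error, which the intervals given (exact Poisson, 95%) cover, while the spread between cultures is unknown. Each read was drawn over about 299 bp in the Tip60, untagged and p400 libraries and about 148 bp in the Hdac6 libraries, and for this reason reads and not coverage are compared between them. Levels are also given as RPM, the reads in the window per 1000000 normalizing reads. Intervals of ratios are exact (Clopper-Pearson) and can reach 0 where the test gives a p just below 0.05.

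Upon GFP KD the tagged Hdac6 protein gave its highest counts in the family at Hdac10, Hdac11, Hdac2 and Hdac3. Hdac10 had 31 reads (95% interval 21.1 to 44.0), a level above 99.2% of all rows, Hdac11 had 29 reads (98.6%), and Hdac2 and Hdac3 had 27 reads each (97.5%). Hdac4 TSS 1 had 17 reads, Hdac5 16 and Hdac1 15, and the TSSs of Hdac6 itself had 12, 12, 11 and 14 reads in their order. The lowest were Hdac8 and Hdac9 TSS 1 with 9 reads, Hdac9 TSS 2 and Hdac4 TSS 2 with 8, and Hdac4 TSS 3 with 4 (1.09 to 10.2). The ends of this order had intervals that did not overlap, whereas in none of the 15 pairs of neighbours did the intervals separate.

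The p400 library upon GFP KD put Hdac2 first, with 46 reads (33.7 to 61.4; above 96.6% of all rows with p400 data), followed by Hdac10 with 41 (93.6%) and Hdac3 with 37 (89.4%). Hdac11 had 28 reads, Hdac1 26, Hdac5 25, Hdac4 TSS 1 24, Hdac4 TSS 2 19, Hdac9 TSS 1 17, Hdac8 16 and Hdac9 TSS 2 12. The Hdac6 TSSs had 11, 10, 7 and 7 reads in their order and Hdac4 TSS 3 had 9. Hdac2, Hdac3, Hdac10 and Hdac11 were thus the 4 genes with most reads for both proteins.

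In Tip60-H3F cells upon GFP KD the range was narrower. Hdac1 led with 24 reads (15.4 to 35.7; above 92.3% of all rows), then came Hdac3 and Hdac10 with 21, Hdac2 with 18, Hdac11 with 17 and Hdac5 with 16. All other rows had 11 reads or fewer, and Hdac8 and Hdac6 TSS 4 had 4 (1.09 to 10.2). The untagged library ran from 8 reads at Hdac8 to 18 at Hdac3, and there even the intervals of the highest and the lowest row overlapped.

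**Figure D1:**
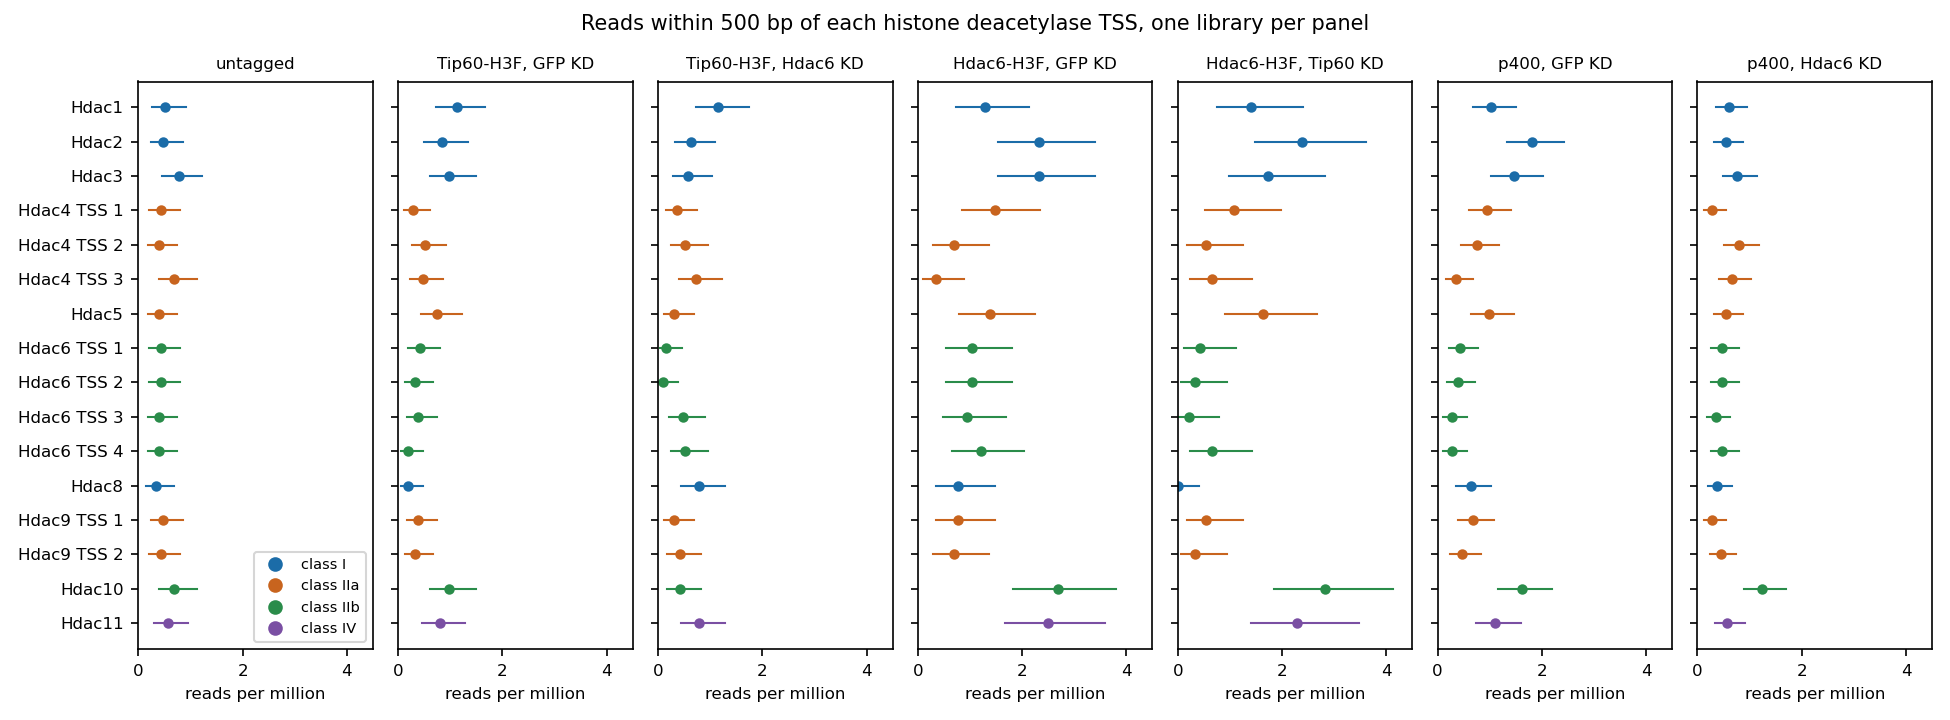
Reads RPM within 500 bp of each of the 16 TSSs (x axis), one panel per library and one line per TSS (y axis, TSS 1 being the most upstream). Points are the counts of single libraries, horizontal lines exact 95% Poisson intervals that cover counting error only, and colours the enzyme class. The untagged panel is flat, while the Hdac6-H3F and p400 GFP KD panels rise at Hdac2, Hdac3, Hdac10 and Hdac11.

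By class, taking the first listed row of each gene, Hdac6 ChIP upon GFP KD gave a median of 21 reads in class I (9 to 27 over 4 genes), 8 in class IIa (4 to 16 over 3 genes) and 22.5 in class IIb (14 to 31 over 2 genes), with 29 at Hdac11. In the p400 library the medians were 31.5 (16 to 46), 12 (9 to 25) and 24 (7 to 41), and in the Tip60 library 19.5 (4 to 24), 10 (7 to 16) and 12.5 (4 to 21). The untagged medians were 11.5, 10 and 12.5. The first listed row of Hdac4, Hdac6 and Hdac9 is the most downstream one, and the position of class IIa rests on this. With the most upstream TSS of each gene, added after the values were seen, the class IIa median was 16 in the Hdac6 library and 24 in the p400 library, but 8 in the Tip60 library. Within class I Hdac8 was the lowest in all 3 GFP KD libraries, and within class IIb Hdac6 was lower than Hdac10 in all 3.

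Hdac6 and Hdac8 are on chromosome X, of which E14 ESCs, being male, have a single copy. Rows on the X had a median of 6 reads in the untagged library, against 12 on the autosomes, and 4 against 11 in the Hdac6 library upon GFP KD. Set against X rows alone, the counts of Hdac6 TSS 4 and of Hdac6 TSS 1 in that library lay above 96.6% and 92.9% of rows, where they lay above 65.7% and 56.2% of all rows. Hdac8, with 9 reads, lay above 82.4% of X rows and 41.1% of all rows. In the untagged library too these rows were high among X rows, with Hdac6 TSS 4 above 71.4%, Hdac6 TSS 1 above 78.9% and Hdac8 above 64.7%. Fewer copies and less binding cannot be told apart at these TSSs when they are set against autosomal members.

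Against the untagged library, the reads of Hdac6-H3F ESCs upon GFP KD were higher at 7 of the 16 rows, 1 row from each of 7 genes, at an adjusted p below 0.05 (two-sided exact conditional binomial test on reads, Benjamini-Hochberg over 36072 rows). Of all rows 23.3% were called higher and 0.419% lower, so that most of this count has to be read against a general shift, whose median over all rows was 0.78 on the log2 scale of RPM. The median of the 16 rows was 1.30. Equal library totals lower every ratio of this comparison by 0.46 and leave 3 rows called, Hdac2, Hdac10 and Hdac11. Over all 36072 rows the calls higher went from 8387 to 2799. Hdac2 rose most, from 11 reads in the untagged library (0.475 RPM) to 27 (2.33 RPM), a log2 ratio of 2.29 (95% interval 1.24 to 3.45; exact binomial, adjusted p = 0.000105). Up to 5 of these 27 reads began or ended within 1 step of 20 bp, as in 0.855% of rows of that library, and the part of such stacks in the ratio was not tested. Hdac11 rose from 13 to 29 reads (2.16; adjusted p = 0.000125), Hdac10 from 16 to 31 (1.95; adjusted p = 0.000204) and Hdac3 from 18 to 27 (1.58; adjusted p = 0.00389) in the same exact test. Hdac5 (9 to 16 reads), Hdac4 TSS 1 (10 to 17) and Hdac6 TSS 4 (9 to 14) were called with log2 ratios of 1.83, 1.76 and 1.64. Raw counts understate these ratios because the Hdac6 library is the smaller one.

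Of the rows that were not called, Hdac1 had 12 untagged reads and 15 in the Hdac6 library (1.32; exact binomial, adjusted p = 0.0794), and Hdac6 TSS 1, TSS 2 and TSS 3 had log2 ratios of 1.26, 1.26 and 1.29. Hdac8 stood at 1.17, Hdac4 TSS 2 at 0.83 and the Hdac9 TSSs at 0.71 and 0.68. Hdac4 TSS 3 was the only row below 0, with 16 untagged reads against 4, or 0.691 against 0.345 RPM (log2 interval −3.04 to 0.63). The 3 Hdac4 TSSs, in their order, had 17, 8 and 4 reads in the Hdac6 library and 10, 9 and 16 in the untagged one.

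The ratio followed GC content in DNA away from promoters as well. In windows 1500 to 2000 bp from a TSS with no other TSS within 1000 bp, the ratio of the Hdac6 library to the untagged one climbed from 0.377 in the lowest GC bin to 4.64 at 70% GC and above, which is the bin of Hdac2 and Hdac4 TSS 1. With the flank ratio of the same GC content as the expected ratio, 0 of the 16 rows were called, and of all rows 18 were called higher and 15 lower. The log2 ratio of Hdac2 was then 0.08 and that of Hdac4 TSS 1 −0.45 (exact binomial, unadjusted p = 0.41), whereas Hdac6 TSS 4, Hdac11 and Hdac10 stood at 0.98, 0.91 and 0.88, the last with an unadjusted exact p of 0.0568. Flank windows of high GC content are few, 50 in the highest bin, and may hold bound DNA themselves, so this setting can also remove binding.

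**Figure D2:**
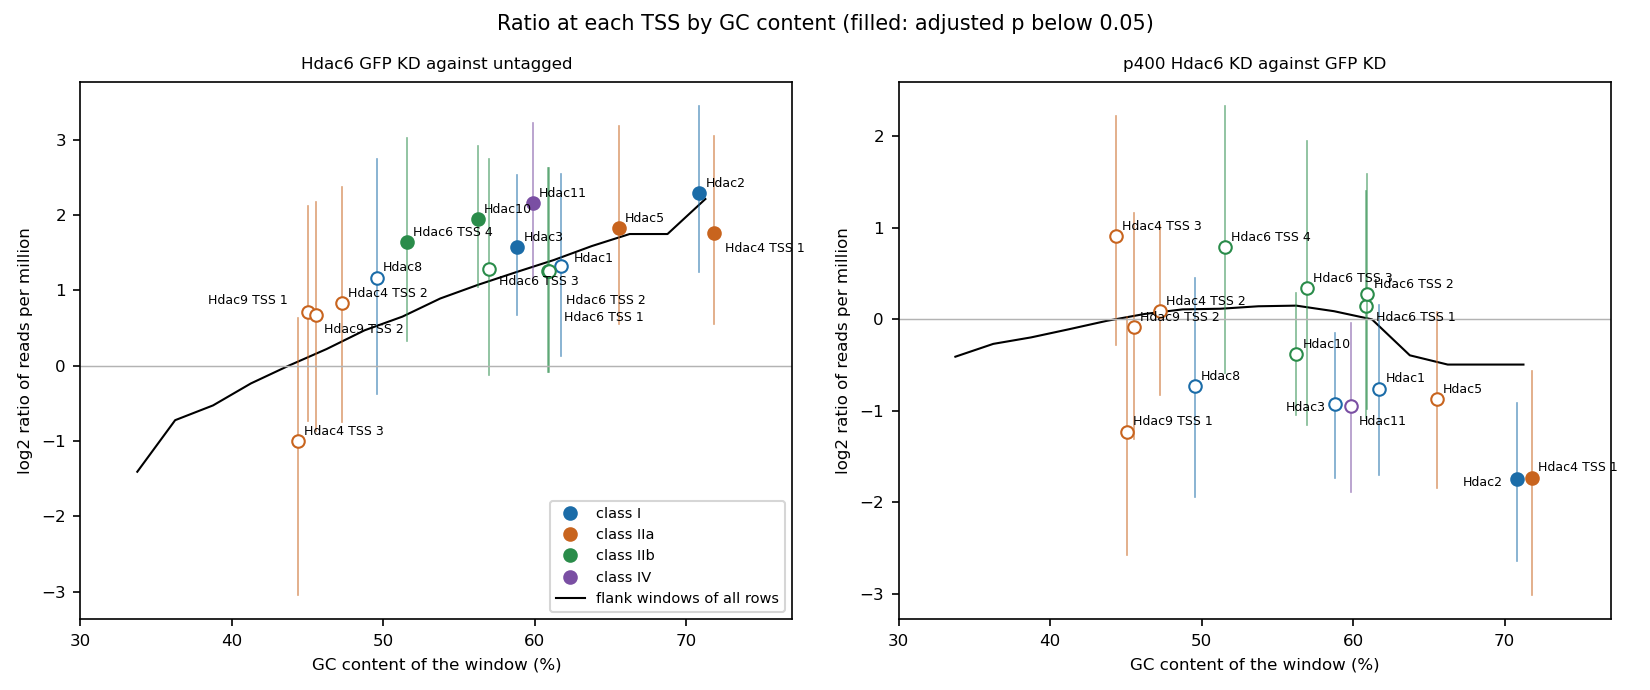
Log2 ratio of RPM at each TSS (y axis) by the GC content of its window (x axis, %), for Hdac6 upon GFP KD against untagged (left) and p400 upon Hdac6 KD against GFP KD (right). Vertical lines are exact 95% intervals, filled points have an adjusted p below 0.05, and colours give the class. The black line is the ratio in flank windows of all rows, and GC bins with under 50 windows repeat the value of the bin below. On the left the points at Hdac2 and Hdac5 lie close to that line and those of Hdac10, Hdac11 and Hdac6 TSS 4 above it. On the right Hdac2 and Hdac4 TSS 1 lie below the line, which there repeats the value of a lower bin.

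Counting within a library leaves out the other library. Against their own flanks, 1500 to 2000 bp to either side, promoters were higher at 5 of 16 rows in the Hdac6 GFP KD library (exact binomial test against the share of length; 10.8% of all rows), namely Hdac3 with 27 promoter and 3 flank reads, Hdac11 with 29 and 4, Hdac10 with 31 and 9, Hdac2 with 27 and 8, and Hdac1 with 15 and 3. Hdac6 TSS 4, Hdac5 and Hdac4 TSS 1, which were called against untagged, did not pass here, with 14 and 18, 16 and 11, and 17 and 9 reads. In the p400 GFP KD library 3 rows passed (21.7% of all rows): Hdac2 with 46 and 12 reads, Hdac10 with 41 and 12 and Hdac11 with 28 and 11. In the library titled Tip60 KD, Hdac2 (22 and 5) and Hdac11 (21 and 6) passed, 2 of 16 rows against 8.46% of all. No row of the family passed in Tip60-H3F cells upon GFP KD (2.39% of all rows), in the untagged library (0.215%) or in the p400 library upon Hdac6 KD (0.218%). In Tip60-H3F cells upon Hdac6 KD 1 row passed (2.04% of all rows), Hdac8 with 15 and 1. In the p400 library upon Hdac6 KD Hdac2 had 17 promoter and 17 flank reads, and Hdac10 39 and 23. Flanks are poorer in GC than promoters, with medians of 44.5% upstream and 44.9% downstream over all rows, and the part of this in the counts was not tested.

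The tagged Tip60 protein gave no called row of the family against the untagged library. In Tip60-H3F cells upon GFP KD 0 of 16 rows were higher (1.37% of all rows) and 0 were lower (0.119%) by the exact binomial test. An unadjusted p below 0.05 in this test was found at 1 of the 16 rows, against 11.8% of all rows. That row was Hdac1, with 24 reads against 12 untagged ones, 1.12 against 0.518 RPM, a log2 ratio of 1.12 (0.06 to 2.25; exact binomial, p = 0.0294, adjusted p = 0.342). Hdac5 followed with 0.95 and Hdac2 with 0.83, both with intervals that reached below 0. At Hdac1 the difference recurred in the library upon Hdac6 KD, which had 22 reads (1.15 on the log2 scale; exact binomial, p = 0.0253, adjusted p = 0.327), and the untagged library is common to both comparisons. In that comparison too 0 of 16 rows were called higher (0.338% of all rows) or lower (0.175%). The median log2 ratio of the 16 rows against untagged was −0.04 in the GFP KD library and 0.02 in the Hdac6 KD library, and of all rows 0.12 and −0.07.

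Upon Hdac6 KD p400 reads were called lower at 2 of 16 rows, Hdac2 and Hdac4 TSS 1. This is close to the share of all rows, of which 13.3% were called lower and 0.316% higher, so the fall is not particular to the family. Promoters above their own flanks made up 21.7% of all rows in the p400 GFP KD library and 0.218% in the Hdac6 KD one. With 1 library each, the cause of this general loss was not tested. At Hdac2 the reads went from 46 upon GFP KD (1.82 RPM) to 17 upon Hdac6 KD (0.542 RPM), a log2 ratio of −1.75 (−2.64 to −0.92; exact binomial, adjusted p = 0.000412). At Hdac4 TSS 1 they went from 24 to 9, a log2 ratio of −1.73 (−3.01 to −0.57; exact binomial, adjusted p = 0.0172). Neither was called in the window of 250 bp to either side (Hdac2 −1.67; exact binomial, adjusted p = 0.0993, and Hdac4 TSS 1 −1.89, adjusted p = 0.25) or from −100 to 300 bp (−1.20 and −0.63). Both were called in the window of 1000 bp to either side (−1.51 and −1.76) and from −600 to −200 bp (−2.06 and −2.77). Both lie in the GC-richest windows of the family, at 70% GC and above. Only 36 flank windows with p400 data had this GC content, too few for a ratio of their own. The ratio used there was 0.709, taken over from flank windows of 65 to 67.5% GC. With that ratio expected, Hdac2 stood at −1.25 (exact binomial, adjusted p = 0.0208) and Hdac4 TSS 1 at −1.23, no longer called (adjusted p = 0.165). Up to 6 of the 24 p400 reads at Hdac4 TSS 1 upon GFP KD began or ended within 1 step of 20 bp, as in 0.854% of rows. Repeated reads were kept by the authors, and their part in the change was not tested.

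The other rows did not pass. Hdac3 went from 37 to 24 reads (−0.93; exact binomial, adjusted p = 0.0779), Hdac11 from 28 to 18 (−0.95; adjusted p = 0.146) and Hdac9 TSS 1 from 17 to 9 (−1.23; adjusted p = 0.17) in the same exact test. Hdac5 stood at −0.87, Hdac1 at −0.76 and Hdac8 at −0.73. Hdac10, with 41 and 39 reads, stood at −0.38 (−1.05 to 0.29), and had the most p400 reads of the family after Hdac6 KD. The TSSs of Hdac6 had ratios above 0 throughout (0.14, 0.27, 0.34 and 0.79 in their order), from 7 to 15 reads, with intervals that all included 0. The median over the 16 rows was −0.55 and over all rows −0.49. Equal library totals raise every p400 ratio by 0.27, and leave Hdac2 as the 1 row called. Over all rows the calls lower went from 3000 to 783.

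In p400 ChIP the reads counted at the Hdac4 rows went in different directions. From GFP KD to Hdac6 KD the reads went from 24 to 9 at TSS 1, from 19 to 25 at TSS 2 and from 9 to 21 at TSS 3. The difference in log2 ratio between TSS 3 and TSS 1 was 2.64 (Fisher's exact test on reads, p = 0.000994, adjusted over 3 pairs 0.00298), that between TSS 2 and TSS 1 was 1.81 (exact p = 0.0117, adjusted 0.0176) and that between TSS 3 and TSS 2 was 0.83 (exact p = 0.331). These pairs were chosen because their values differed, so the p-values describe the reads of 2 libraries and support no difference between the TSSs. The windows of these TSSs hold 71.8%, 47.3% and 44.4% GC. The p400 tables give no position, so rows with 1 identifier were matched by their order; where overlapping TSSs of Hdac6 and Hdac9 allowed a check, the coverage matched in that order with r of 0.976 or more, and with 0.479 or less when swapped. The order of the Hdac4 rows could not be checked this way.

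**Figure D3:**
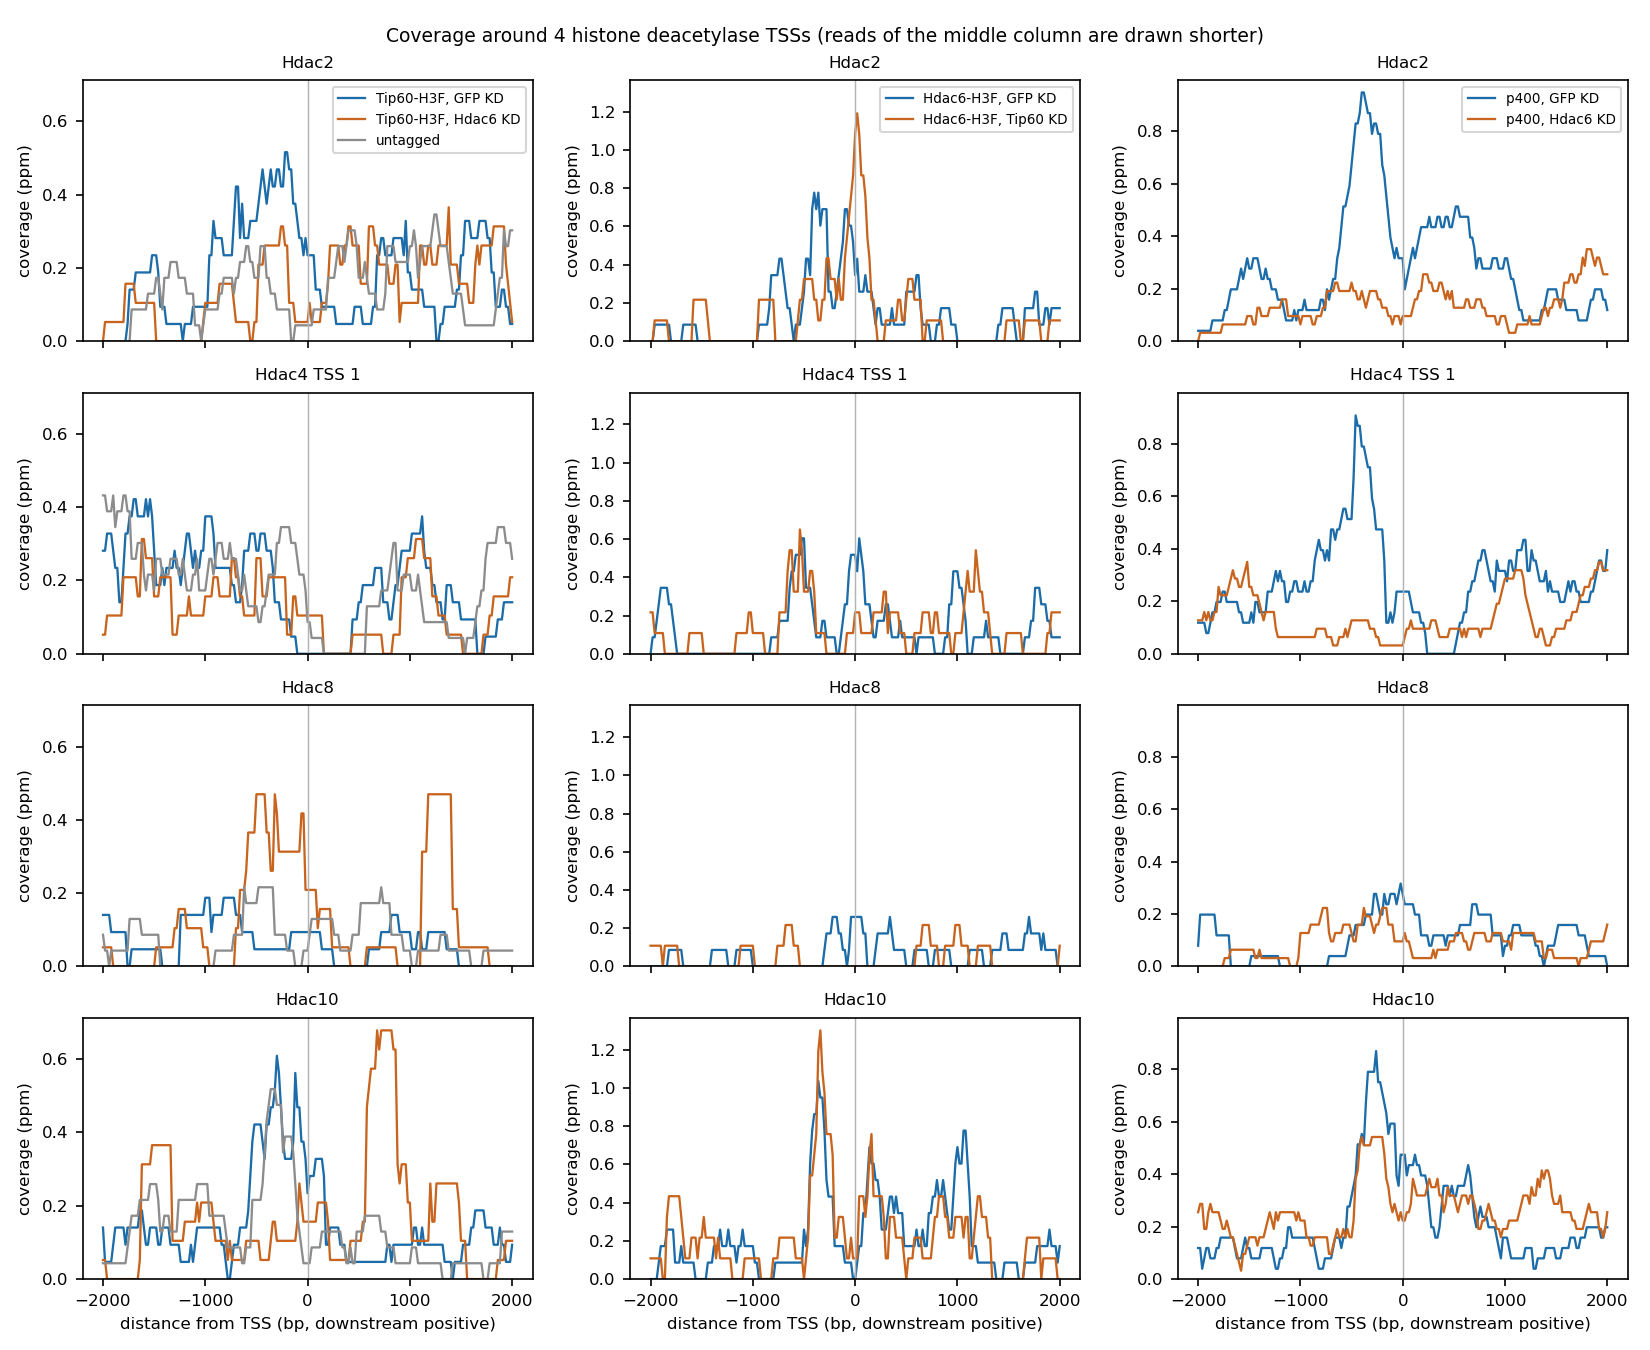
Coverage in ppm (y axis) by distance from the TSS in bp (x axis, downstream positive) at Hdac2, Hdac4 TSS 1, Hdac8 and Hdac10, with Tip60-H3F and untagged libraries on the left, Hdac6-H3F libraries in the middle and p400 libraries on the right; each line is 1 library and heights compare within a column. At Hdac2 the p400 line upon GFP KD has its top 380 bp upstream of the TSS, where the Hdac6 KD line is lower, while at Hdac10 both p400 lines have a top upstream of the TSS.

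The place of the highest coverage varied from gene to gene. With the coverage smoothed over 100 bp, the p400 top upon GFP KD lay 380 bp upstream at Hdac2, 300 bp upstream at Hdac10, and 420 bp upstream at Hdac3 and at Hdac4 TSS 1. It lay 300 bp downstream at Hdac11, 140 bp downstream at Hdac1 and on the TSS at Hdac5. The Hdac6 top upon GFP KD lay 360 bp upstream at both Hdac2 and Hdac10, 120 bp downstream at Hdac11 and on the TSS at Hdac3. In the library titled Tip60 KD it lay 20 bp downstream at Hdac2, 340 bp upstream at Hdac10, 60 bp upstream at Hdac11 and 260 bp downstream at Hdac3. Few reads set these places. At Hdac2 the Hdac6 coverage upon GFP KD was 0.777 ppm at −360 bp and 0.691 ppm at −100 bp, where 1 read is 0.0863 ppm. At Hdac10 the tops of the Tip60 library and of the untagged one were also upstream, at 320 and 340 bp, so that the place of the top there is no mark of a tagged protein. Counting reads from −600 to −200 bp and from −100 to 300 bp, the upstream window had more in 11 of the 16 rows for Tip60 upon GFP KD (41.7% of all rows) and in 9 in the untagged library (47.0%). For Hdac6 upon GFP KD the downstream window had more in 10 rows (55.8% of all rows), and for p400 upon GFP KD it had more in 8 rows (55.8%) and the upstream window in 7 (33.8%).

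Tip60 reads upon Hdac6 KD were called at no row of the family against GFP KD. Of all rows 20 were called higher (0.0555%) and 160 lower (0.444%). With equal totals these were 21 higher and 45 lower, and with the GC-matched ratio 28 and 23. An unadjusted exact binomial p below 0.05 was found at 2 of the 16 member rows, against 13.3% of all rows. Hdac8 had 4 reads in the GFP KD library and 15 in the Hdac6 KD one (0.187 and 0.783 RPM), a log2 ratio of 2.06 (0.41 to 4.11; exact binomial, p = 0.00945, adjusted p = 0.192). Its count in the untagged library was 8, between the others. Hdac10 had 21 reads and 8 (−1.24; exact binomial, p = 0.0399, adjusted p = 0.343), and Hdac5 16 and 6 (−1.26; exact p = 0.0855). Hdac1 had 24 and 22 reads (0.03, interval −0.87 to 0.93). At the TSSs of Hdac6, the gene that was knocked down, Tip60 reads upon GFP KD and Hdac6 KD were 9 and 3 at TSS 1, 7 and 2 at TSS 2, 8 and 9 at TSS 3, and 4 and 10 at TSS 4, none with an unadjusted exact p below 0.05. The Hdac6 KD library had the most rows with 4 or more reads that begin or end within 20 bp of each other, 29.2% against 14.2% upon GFP KD, and the part of such stacks in single counts was not tested.

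In Hdac6-H3F ESCs, 0 of 16 rows were called in either direction by the exact binomial test between the library titled Tip60 KD and GFP KD. Of all rows 0.00279% were called higher, which is 1 row, and 0% lower. Hdac2 had 22 and 27 reads (0.03 on the log2 scale, −0.85 to 0.90), Hdac10 26 and 31 (0.07, −0.74 to 0.87), Hdac11 21 and 29 (−0.14) and Hdac1 13 and 15 (0.12). At an unadjusted exact binomial p below 0.05 stood 2 of the 16 rows, Hdac8 and Hdac6 TSS 3, against 3.66% of all rows. Hdac8 had 9 reads upon GFP KD and 0 in the library titled Tip60 KD (exact p = 0.0058). The exact interval of its log2 ratio had no lower end and an upper end of −0.65. With 3 reads put in place of 0 the level was 2.39-fold lower, a value set by that floor and not a bound. Hdac6 TSS 3 had 11 and 2 reads (−2.13, interval −5.35 to 0.07; exact p = 0.048). The TSSs of Hdac6 that overlap it had 12 and 4 reads (TSS 1) and 12 and 3 (TSS 2), and TSS 4 had 14 and 6. All 5 rows on the X, of which 3 overlap, thus had fewer reads in the library titled Tip60 KD, as had 10 of the 11 autosomal rows, this library being the smaller one. In RPM all 5 X rows and 6 of the 11 autosomal rows were lower there, against 48.9% of all X rows and 47.9% of all autosomal rows. After adjustment none passed, each with an adjusted exact p of 1.

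**Figure D4:**
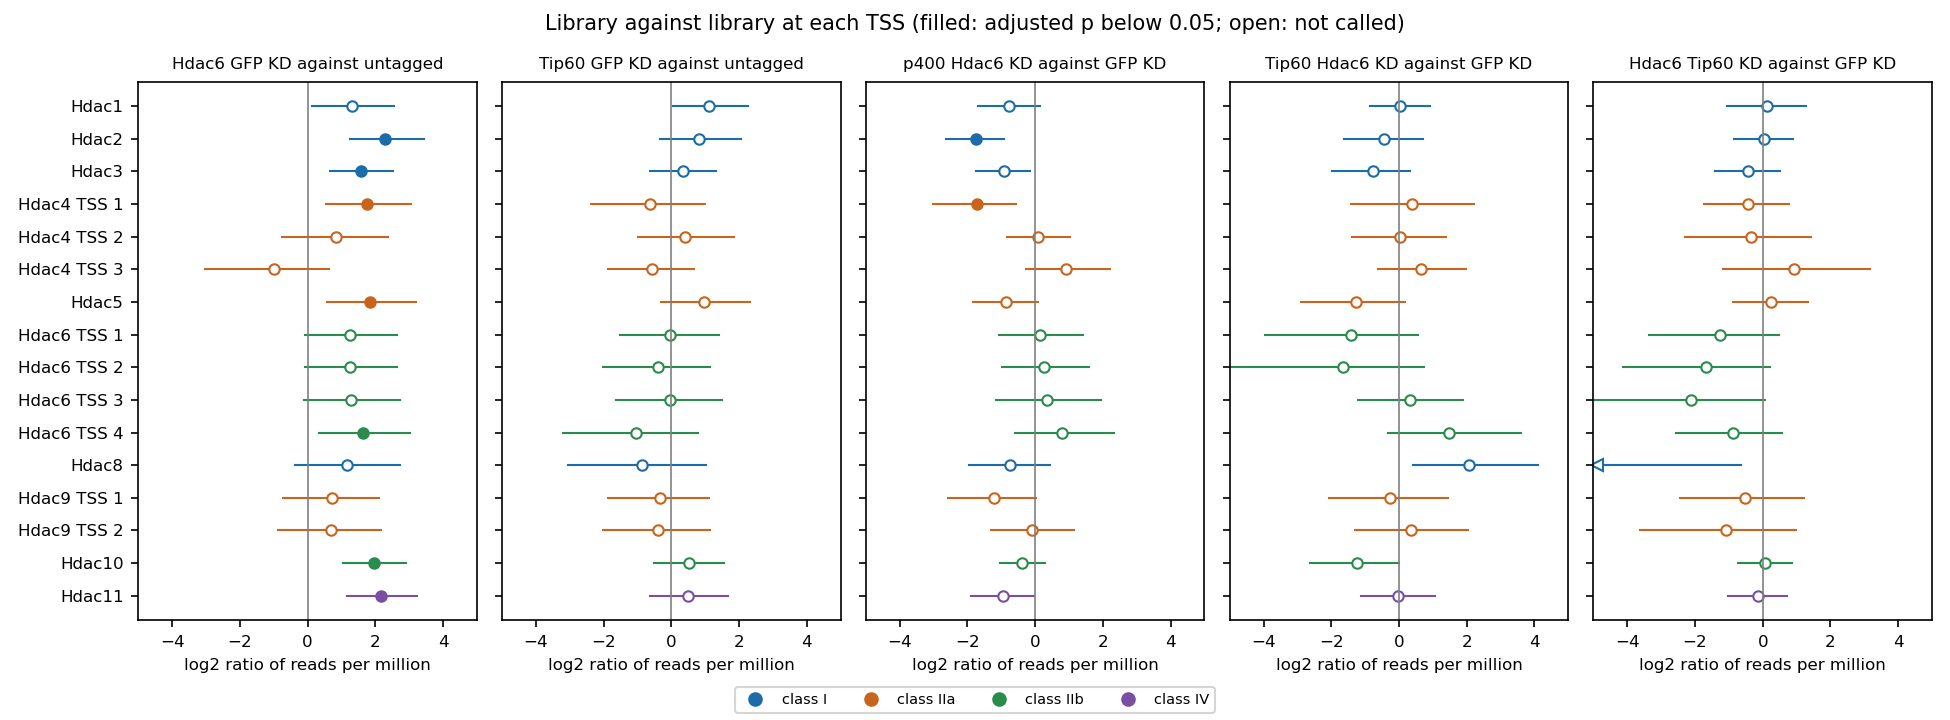
Log2 ratio of RPM between libraries (x axis) at each of the 16 TSSs (y axis) in 5 comparisons, with exact 95% intervals for counting error; filled points have an adjusted p below 0.05, and the arrowhead marks 0 reads at Hdac8. Filled points occur at 7 rows for Hdac6 against untagged and at 2 rows, both below 0, for p400 upon Hdac6 KD.

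The partners of the class I enzymes and the sirtuins, a separate family of deacetylases that need NAD, were examined by the same exact binomial test on the first RefSeq row of each gene. Of 42 genes listed 39 were found, 12 of 14 for Sin3, 9 for NuRD, 7 for CoREST, 5 for NCoR and SMRT and 6 of 7 sirtuins. For Hdac6 against untagged 18 of 39 were called higher, 5 for Sin3, 6 for NuRD, 3 for CoREST, 1 for NCoR and SMRT and 3 sirtuins, with a median log2 ratio of 1.64. Of all rows 23.3% were called higher in this comparison. With equal totals 8 of the 39 were called, where calls higher over all rows went from 8387 to 2799. With the GC-matched flank ratio 0 of the 39 and 18 of all rows were called higher by the exact test, and the median of the 39 was −0.24. Sirt1, a nuclear sirtuin, had 26 reads against 5 (3.38, interval 1.97 to 5.11) and Mta1, a NuRD subunit, 23 against 5 (3.20, interval 1.77 to 4.95). With the GC-matched ratio they stood at 1.16 and 0.99, neither with an unadjusted exact p below 0.05 (0.116 and 0.216). For Tip60 upon GFP KD against untagged 3 of 39 were called (1.37% of all rows), among them both p66 subunits of NuRD, Gatad2a with 34 against 7 reads (2.40; exact binomial, adjusted p = 0.00159) and Gatad2b with 31 against 10 (1.75; exact binomial, adjusted p = 0.0356). Both with equal totals and with the GC-matched ratio 1 of the 39 was called, Gatad2a, and in the window of 250 bp none. Over all rows the calls higher went from 494 to 371 with equal totals and to 360 with the GC-matched ratio. No histone deacetylase row passed in that comparison.

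Upon Hdac6 KD p400 was called lower at 11 of the 39, 6 of 12 for Sin3, 4 of 9 for NuRD and 1 of 7 for CoREST, with a median of −0.87, and at no NCoR, SMRT or sirtuin gene, where 13.3% of all rows were called lower. With equal totals 1 of the 39 was called lower, Rbbp4, where calls over all rows went from 3000 to 783. With the GC-matched ratio 4 were called lower, Rbbp4 among them, where calls over all rows went from 3000 to 2377. In the window of 250 bp none of the 39 was called. Rbbp4, the histone-binding subunit that Sin3 and NuRD share, fell from 47 to 15 reads (−1.96; exact binomial, adjusted p = 0.000112) and Ing2, a Sin3 subunit, from 38 to 18 (−1.39; exact binomial, adjusted p = 0.0105). Ing2 was also the single gene of the lists called for Tip60 upon Hdac6 KD, from 32 reads to 6 (−2.26; exact binomial, adjusted p = 0.0262), a call lost with equal totals (exact binomial, adjusted p = 0.0654) and with the GC-matched ratio (adjusted p = 0.199). In the library titled Tip60 KD none of the 39 was called against GFP KD, and their median was 0.15. The median of all rows was −0.26 for Tip60 upon Hdac6 KD, where that of the lists was −0.58, and 0.02 for the library titled Tip60 KD.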

How the data were processed

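The authors collapsed single-end reads by sequence with their occurrences kept, mapped them to mm9 with Bowtie (at most 1 mismatch, random placement of multiple matches), extended them and deposited the coverage signal in ppm at 201 positions from −2000 to 2000 bp of each TSS. Bowtie's version and the normalization are not given in the sources used here. The submitters' processing notes also name CASAVA 1.8.2. All values were whole multiples of 1 step (tolerance 0.1 step), whose inverse is the number of normalizing reads. Reads in a window are the summed multiples times 20 bp, divided by the span of an isolated read, and rounded. p400 rows, which carry only identifiers, were joined by identifier and order. Positions of rows were checked against the mm9 genome annotation.

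Pairs of libraries were compared per row by two-sided exact conditional binomial tests on reads with Benjamini-Hochberg adjustment over all rows with reads (Python 3.11.15, scipy 1.17.1). The tests were tried on simulated counts with counting error only and with changes placed in rows of higher counts. Recovery of changes at low counts and repeated reads were not tried. With 1 library per condition the tests compare libraries, not conditions, and repeated reads make p-values too small. Members and lists were chosen with earlier results of these data known. All members were reported, and of the partner lists the 2 called genes with the smallest p per direction. Alternatives covered windows, totals, GC content, 1 row per gene, a minimum of 10 reads and an adjusted p of 0.01. The Hdac4 pairs, the Hdac2 sequence, the upstream-most TSS and leaving out the top 1% of rows by untagged reads were chosen after seeing the data.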

Additional observations from a re-analysis of the deposited data

How the results depend on the processing

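No paired analysis was possible because each condition had 1 library, and for the same reason no library could be left out. In the 4 comparisons in which no member row was called, none was called under any of the 9 alternatives. The 7 rows called higher for Hdac6 against untagged became 3 with a window of 250 bp to either side, 3 with equal totals, 4 at an adjusted p below 0.01, and 0 both in the upstream window and with the GC-matched flank ratio, under which Hdac4 TSS 1 changed sign to −0.45; that fewer reads enter narrower windows is part of their construction, and the cause was otherwise not tested. The 2 rows called lower for p400 upon Hdac6 KD became 0 in the window of 250 bp and in the downstream window, and 1 with equal totals, with the GC-matched flank ratio, with 1 row per gene symbol (which leaves out Hdac4 TSS 1) and at an adjusted p below 0.01; leaving out the top 1% of rows by untagged reads, an alternative added after seeing the data, they were 2. Against flanks, a promoter window of 250 bp lowered the count from 5 to 3 for Hdac6 upon GFP KD and from 1 to 0 for Tip60 upon Hdac6 KD. Less the flank signal, the median signal in ppm of classes I, IIa and IIb was 0.105, −0.0130 and 0.0361 for Tip60, 0.0452 (IIa) and 0.119 (IIb) for Hdac6, and 0.171, 0.00799 and 0.139 for p400, all upon GFP KD. With the most upstream TSS of each gene the class IIa median for p400 was 0.284 in place of 0.139. Depth limits single rows: at the median of 8 to 21 reads only differences of several-fold could be called. Over all rows and alternatives, calls ranged from 39 to 673 higher and from 0 to 70 lower for Tip60 against untagged (494 and 43 as reported), from 18 to 8901 and from 3 to 317 for Hdac6 against untagged (8387 and 151), from 0 to 82 and from 2 to 568 for Tip60 upon Hdac6 KD (20 and 160), from 0 to 190 and from 162 to 4342 for p400 upon Hdac6 KD (71 and 3000), and from 11 to 407 and from 2 to 293 for Tip60 upon Hdac6 KD against untagged (122 and 63).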
